A study of Mus musculus with 6 samples.

Results

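TWEAK receptor and NF-kB pathway genes were examined in gastrocnemius, the main calf muscle, of wild type mice held under intermittent restraint. The 10 genes were chosen by symbol from a table of 46504 features, and the choice was made with the control against restraint counts of this table in view, above all the high restraint level of Tnfrsf12a. Their differences between groups are therefore given as descriptions without p-values. All 10 were found in the table and all 10 passed the filter on low counts, among 15448 features tested. PolyA RNA was measured in 3 control libraries and 3 restraint libraries, both groups labelled day 4. Restraint meant confinement in 50 mL tubes, in sessions of 3 hours repeated every 4 days. The labels attach this same protocol text to the controls and give no other handling for them, and they give neither age nor sex. Nothing in them tells whether libraries of a group stem from different mice, so p-values measure only the spread between libraries, which may be technical.

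TWEAK, the product of Tnfsf12, is a cytokine of the tumour necrosis factor (TNF) family that is made widely and at steady levels. Its receptor Fn14, the product of Tnfrsf12a, is scarce in resting muscle of mice and is known to be induced by denervation and injury, and its level is thought to limit TWEAK signalling there. Bound Fn14 recruits the adaptor TRAF2. The canonical arm of NF-kB then releases p50 and RelA (Nfkb1 and Rela) from the inhibitor IkBα (Nfkbia), while the alternative arm stabilises the kinase NIK (Map3k14), which leads to the processing of p100 (Nfkb2) to p52 and to its pairing with RelB (Relb). Nfkbia, Nfkbiz, Tnfaip3, Nfkb2 and Relb are themselves known NF-kB targets, and several of them feed back on the pathway.

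Tnfrsf12a (gene 27279) lies on GRCm38 at chr17:23675445-23677449, minus strand. RefSeq promoter windows on GRCm38.p6 were at hand for 6 of the 10 genes. The 250 bases before the start site are shown for the receptor, which had the largest difference between groups, for Nfkb2 and Nfkbia, which came next, and for Tnfaip3, whose level barely differed. Capitals mark GC boxes (GGGCGG on either strand) in Tnfrsf12a and matches to the 10-base kappaB consensus on either strand in the other genes.
Tnfrsf12a, chr17:23677450-23677699, minus strand: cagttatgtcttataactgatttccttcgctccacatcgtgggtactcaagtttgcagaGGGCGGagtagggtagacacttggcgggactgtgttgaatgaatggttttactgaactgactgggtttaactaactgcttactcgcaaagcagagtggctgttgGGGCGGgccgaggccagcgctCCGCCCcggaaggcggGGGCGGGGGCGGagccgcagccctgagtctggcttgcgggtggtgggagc
Nfkb2, chr19:46304487-46304736, plus strand: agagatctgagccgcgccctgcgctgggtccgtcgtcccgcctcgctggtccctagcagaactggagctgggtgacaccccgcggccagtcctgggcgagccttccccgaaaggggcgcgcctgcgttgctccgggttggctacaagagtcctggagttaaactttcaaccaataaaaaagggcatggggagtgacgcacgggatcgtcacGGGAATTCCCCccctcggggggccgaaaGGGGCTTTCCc
Nfkbia, chr12:55492648-55492897, minus strand: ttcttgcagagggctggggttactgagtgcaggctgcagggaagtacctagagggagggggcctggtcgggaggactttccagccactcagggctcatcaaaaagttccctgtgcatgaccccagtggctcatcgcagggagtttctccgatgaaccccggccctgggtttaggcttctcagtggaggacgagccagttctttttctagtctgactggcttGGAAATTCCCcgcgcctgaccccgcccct
Tnfaip3, chr10:19015411-19015660, minus strand: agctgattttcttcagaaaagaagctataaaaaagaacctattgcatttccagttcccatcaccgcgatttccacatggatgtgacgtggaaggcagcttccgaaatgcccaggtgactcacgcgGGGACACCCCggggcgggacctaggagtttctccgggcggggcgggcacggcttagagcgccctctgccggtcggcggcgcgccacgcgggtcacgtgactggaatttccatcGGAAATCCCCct

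The Tnfrsf12a window held 5 GC boxes and no match to the kappaB consensus. GC boxes, not in capitals in the other windows, numbered 3 in Tnfaip3, 1 in Nfkbia and 0 in Nfkb2. The Nfkb2 window held 3 kappaB matches, of which a pair overlaps by all but 1 base, the Tnfaip3 window 2 and the Nfkbia window 1. Nfkb2 and Tnfaip3 have other start sites among these promoter windows, 3 and 2 in all, and those shown are the first of each listed. The windows not shown held fewer kappaB matches, 1 in each of Nfkb2 and 0 in that of Tnfaip3. The windows of Rela and Traf2, also not shown, held 0. The Nfkb2 window shown lies inside the locus of the gene, which begins at chr19:46300994. Among 32851 promoter windows of all genes, 7.25% held a kappaB match and 32.7% a GC box. The letters are a description of these windows and say nothing of factors bound there.

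The receptor stood apart from the other genes. Tnfrsf12a was counted at 6.45, 6.29 and 6.96 CPM (counts scaled to library size with TMM factors) in controls 1 to 3 and at 33.7, 49.5 and 52.6 CPM in restraint 1 to 3. Every restraint library lay well above every control library, and restraint 1 was the lowest of the restraint group. The means were 6.57 ± 0.35 and 45.3 ± 10.1 CPM (SD, n = 3 per group), a 6.90-fold difference and a log2 fold change of 2.78 ± 0.17 (SE). These values rest on 258 to 379 reads in controls and 1502 to 2310 in restraint. With any single library left out the log2 fold change stayed between 2.67 and 2.96. An opposite-strand neighbour, Hcfc1r1, shares 80 bases with Tnfrsf12a and had a log2 fold change of 0.32 ± 0.19.

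Its ligand did not share this difference. Tnfsf12 (chr11:69686240-69696098) was counted at 7.31, 8.36 and 6.63 CPM in controls against 6.49, 6.96 and 7.22 CPM in restraint, with a log2 fold change of -0.11 ± 0.14. The groups overlapped, and the lowest and the highest library were restraint 1 and control 2. On the deposited TPM scale, which is per length, receptor exceeded ligand 1.56, 1.33 and 1.85 times in controls 1 to 3 and 9.14, 12.5 and 12.8 times in restraint 1 to 3. The Tnfsf12 locus lies within Tnfsfm13, a readthrough gene that joins Tnfsf12 to Tnfsf13, and how the reads were divided among these genes is uncertain. Tnfsfm13 itself stood between 2.93 and 4.70 CPM in the 6 libraries, and restraint 1 and restraint 2 held the ends of that range.

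Traf2 (chr2:25517982-25546940), the adaptor that links the receptor to both arms, was level across groups within the spread of the libraries. It was counted at 11.4, 9.31 and 9.16 CPM in controls against 10.5, 8.63 and 8.01 CPM in restraint, a log2 fold change of -0.14 ± 0.15. In both groups library 1 was the highest.

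**Figure D1:**
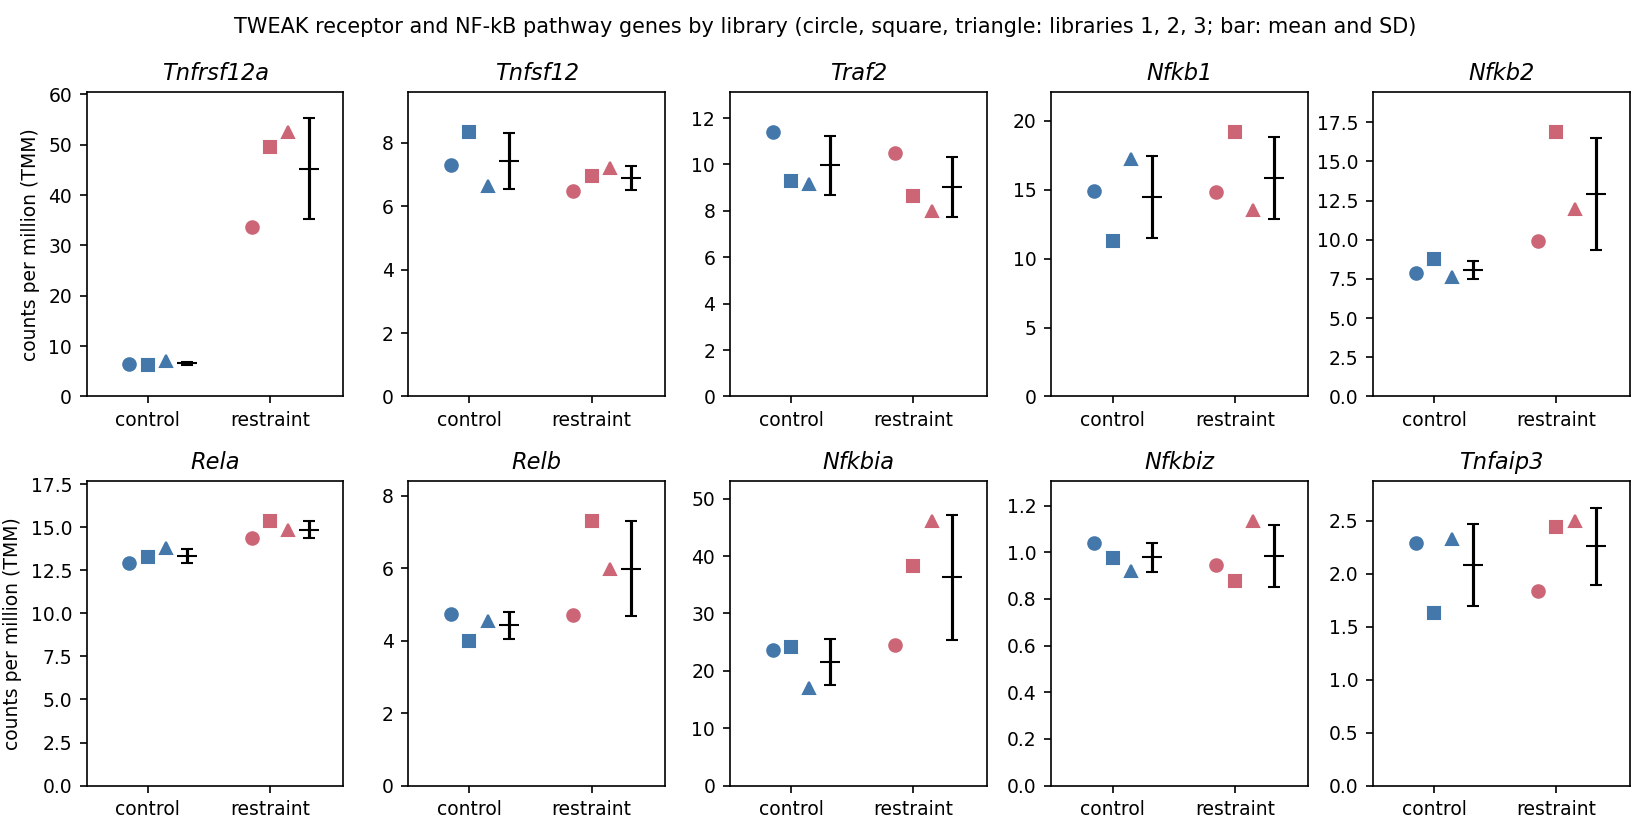
CPM of the 10 genes in each library, 1 panel per gene with a linear axis from 0; circles, squares and triangles are libraries 1, 2 and 3 of each group, and the bar gives mean and SD (n = 3). Tnfrsf12a goes from 6.57 to 45.3 CPM on average, while Tnfsf12, Traf2, Nfkb1, Relb, Nfkbiz and Tnfaip3 overlap between groups.

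The subunits of the canonical arm differed little. Rela (chr19:5637442-5648134), the main activating subunit, was counted at 12.9, 13.3 and 13.8 CPM in controls against 14.4, 15.4 and 14.8 CPM in restraint. The groups did not overlap on CPM, with a log2 fold change of 0.16 ± 0.10, but did on deposited TPM, at 7.51 to 10.15 in controls and 9.37 to 10.92 in restraint. Nfkb1 (chr3:135584655-135691969), which encodes p105 and its product p50, was counted at 14.9, 11.3 and 17.2 CPM in controls against 14.9, 19.2 and 13.6 CPM in restraint. Its groups overlapped throughout, at a log2 fold change of 0.13 ± 0.18, and it was -0.01 without control 2 and -0.03 without restraint 2.

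The subunits of the alternative arm stood higher in restraint on average. Nfkb2 (chr19:46300994-46312400), which encodes p100, was counted at 7.88, 8.75 and 7.62 CPM in controls against 9.95, 16.9 and 12.0 CPM in restraint. The groups did not overlap, though restraint 1 lay close to control 2, and the log2 fold change was 0.68 ± 0.19. Relb (chr7:19606217-19629438), its partner, was counted at 4.74, 4.00 and 4.53 CPM in controls against 4.70, 7.31 and 5.97 CPM in restraint, a log2 fold change of 0.44 ± 0.18. For Relb restraint 1 fell inside the control range, and restraint 2 was the highest library for both genes. Per length, Nfkb2 stood at 0.735 ± 0.182 times the TPM of Nfkb1 in controls and 1.03 ± 0.177 times in restraint (SD, n = 3), while Relb stood at 0.393 ± 0.0317 and 0.467 ± 0.0948 times the TPM of Rela. Restraint 2 carried much of these differences: without it the log2 fold change of Nfkb2 was 0.44 and that of Relb 0.27.

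The feedback genes Nfkbia, Tnfaip3 and Nfkbiz had unlike estimates, and whether they differed from each other was not tested. Nfkbia (chr12:55489409-55492647), the inhibitor that canonical signalling both destroys and rebuilds, was counted at 23.6, 24.2 and 16.98 CPM in controls against 24.5, 38.2 and 46.1 CPM in restraint. Restraint 1 lay just above control 2 and the other restraint libraries well above it, giving a log2 fold change of 0.75 ± 0.23. Its value was 0.97 without restraint 1 and 0.54 without restraint 3.

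The estimates of Tnfaip3 and Nfkbiz lay nearer to none, each smaller than its SE. Tnfaip3 (chr10:19000910-19015410) encodes A20, a ubiquitin-editing enzyme that shuts NF-kB signalling down, and was counted at 2.29, 1.63 and 2.33 CPM in controls against 1.84, 2.44 and 2.499 CPM in restraint, a log2 fold change of 0.11 ± 0.22. Nfkbiz (chr16:55811375-55838954) encodes IkBζ, a nuclear cofactor of NF-kB, and was counted at 1.04, 0.975 and 0.918 CPM in controls against 0.944, 0.878 and 1.13 CPM in restraint, a log2 fold change of 0.01 ± 0.25. Nfkbiz rests on 40 to 51 reads per library and Tnfaip3 on 67 to 127.

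Set side by side, 8 of the 10 log2 fold changes were above 0 and their median was 0.14, where the median of all tested features was -0.01. The edgeR fit over all features placed 1 of the 10, Tnfrsf12a, higher at an adjusted p under 0.05, a class that held 1.26% of features. It placed 0 lower, against 0.563% of features. At an unadjusted p under 0.05 the fit had 4 higher and 0 lower. The share of all features at that unadjusted level was not counted, here or for the lists below. Unadjusted counts therefore have no base to be set against, and nothing is read from them. The shares of 1.26% and 0.563% also stand beside the edgeR calls in those lists. Of the 10, DESeq2 placed 3 higher and 0 lower at its adjusted threshold, where it placed 504 and 309 of all features. Limma voom placed 1 and 0, where it placed 137 and 73 of all features. The 3 restraint values all lay above the 3 control values in 4 of the 10 (Tnfrsf12a, Nfkb2, Rela and Nfkbia), against 10.6% of features, and all below in 0, against 11.1%. On deposited TPM the groups of Rela overlapped, and those of the other 3 did not. Since this contrast chose the genes, nothing is read from those counts and shares. In 7 of the 10 genes restraint 1 held the lowest of the 3 restraint values, a place it held in 32% of all tested features.

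Per length, the order of the genes changed at its head. In controls Nfkbia led at 23.4 ± 2.499 TPM, followed by Tnfrsf12a at 11.9 ± 2.17 and Rela at 8.71 ± 1.34 (SD, n = 3). The ranges of Tnfrsf12a and Rela overlapped, as did those of each neighbouring pair from there down to Relb at 3.42 ± 0.632 TPM. Tnfaip3 at 0.822 ± 0.251 and Nfkbiz at 0.22 ± 0.0246 TPM stood apart below. In restraint Tnfrsf12a led at 83.3 ± 19.9 TPM, clear of Nfkbia at 40.6 ± 12.0, which was clear of Rela at 9.90 ± 0.881.

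Among genes of the TNF receptor family, the receptor went from the fourth place in controls to the first in restraint by mean TPM. Ltbr, the lymphotoxin beta receptor, and Tnfrsf1a, the main TNF receptor, led in controls at 15.9 ± 1.54 and 15.7 ± 3.90 TPM and stood at 16.3 ± 0.623 and 14.8 ± 3.70 TPM in restraint. Of 27 other receptor genes 20 were tested, and 1 rose and 0 fell in the edgeR test over all features, with 3 higher and 3 lower at an unadjusted p under 0.05. DESeq2 called 1 higher and 1 lower, and limma voom 1 and 0. The gene that rose was Eda2r, the X-linked receptor of ectodysplasin A2, which is known in mouse muscle as a receptor that signals through NIK. Eda2r was counted at 7.06, 8.14 and 9.34 CPM in controls against 17.9, 32.3 and 41.5 CPM in restraint, and no restraint library fell near the control range. Its log2 fold change was 1.90 ± 0.28, and the edgeR adjusted p was 0.0182. The call was lost without control 1 (log2 fold change 1.80, edgeR adjusted p = 0.124), control 2 (1.90, 0.068), restraint 2 (1.86, 0.0516) and restraint 3 (1.62, 0.052), and held without control 3 and without restraint 1.

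**Figure D2:**
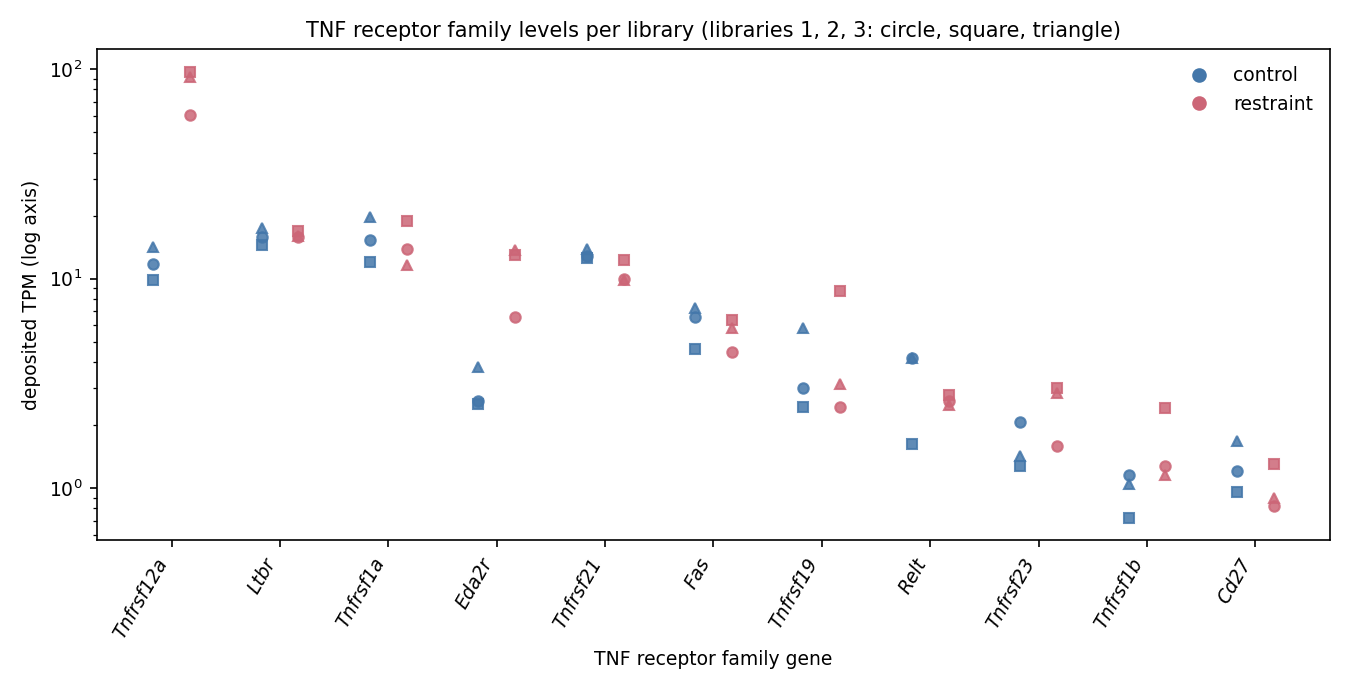
Deposited TPM of TNF receptor family genes with a mean of at least 0.9 TPM in either group, on a log axis, ordered by their restraint mean; circles, squares and triangles are libraries 1, 2 and 3. Tnfrsf12a (11.9 to 83.3 TPM on average) and Eda2r (2.97 to 11.1 TPM) are the 2 genes whose restraint points lie clearly above their control points.

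Other ligands of the family were scarce. Of 17, 5 were tested and 0 passed by edgeR, DESeq2 or limma voom, with 1 higher and 1 lower at an unadjusted p under 0.05. Tnfsf13 (APRIL) stood at 0.234 ± 0.0642 CPM in controls against 0.599 ± 0.178 CPM in restraint, on 9 to 33 reads per library, and Tnfsf10 (TRAIL) at 5.05 ± 0.676 and 3.14 ± 1.04 CPM. Neither passed, with edgeR adjusted p of 0.155 and 0.202. Without restraint 1 Tnfsf10 passed as lower, at a log2 fold change of -0.99 (edgeR adjusted p = 0.0476). Tnf itself was read 6 times in control 3, 2 times in restraint 2 and not in the other libraries, so its level could not be compared.

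Between receptor and kinases, 2 of 19 adaptors and ubiquitin enzymes rose and none fell by edgeR, against 1.26% and 0.563% of all features. Their median log2 fold change was -0.01. DESeq2 called 2 higher and 0 lower, and limma voom 1 and 0. Map3k14 encodes NIK, the kinase of the alternative arm. It was counted at 3.39, 2.63 and 3.47 CPM in controls against 5.999, 7.58 and 5.81 CPM in restraint, and rose by a log2 fold change of 1.03 ± 0.18 (edgeR adjusted p = 0.0288). All restraint libraries lay above all controls, and restraint 1 was not the lowest. Otulin, a deubiquitinase that removes linear ubiquitin chains and restrains canonical signalling, was counted at 10.6, 11.8 and 9.97 CPM in controls against 14.96, 21.0 and 21.9 CPM in restraint, and rose by 0.84 ± 0.16 (edgeR adjusted p = 0.0387). Both calls held without restraint 1 and were lost without any other single library, where log2 fold changes were 0.90 to 1.10 for Map3k14 (edgeR adjusted p from 0.0564 to 0.149) and 0.74 to 0.91 for Otulin (0.0844 to 0.189).

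The kinases next in line gave no call. Of 5 genes of the IKK complex and its relatives, 0 passed by edgeR, DESeq2 or limma voom, with 0 higher and 1 lower at an unadjusted p under 0.05 and a median log2 fold change of -0.09. Ikbke, an IKK-related kinase, stood at 0.513 ± 0.154 CPM in controls against 0.223 ± 0.0389 CPM in restraint, and Ikbkg, the scaffold NEMO, at 14.8 ± 2.25 and 12.2 ± 0.258 CPM. Their edgeR adjusted p were 0.20 and 0.36.

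Of 5 other Rel and IkB family genes 4 were tested, and 0 passed by edgeR, DESeq2 or limma voom, with 1 higher and 0 lower at an unadjusted p under 0.05. All 4 log2 fold changes were above 0, and their median was 0.57. Nfkbib, the inhibitor IkBβ, stood at 21.1, 22.4 and 21.5 CPM in controls against 25.1, 27.4 and 29.2 CPM in restraint, a log2 fold change of 0.33 ± 0.10 (edgeR adjusted p = 0.152). Its groups did not overlap. Nfkbie, the inhibitor IkBε, had 0.89 ± 0.42 on levels under 1 CPM (edgeR adjusted p = 0.356).

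**Figure D3:**
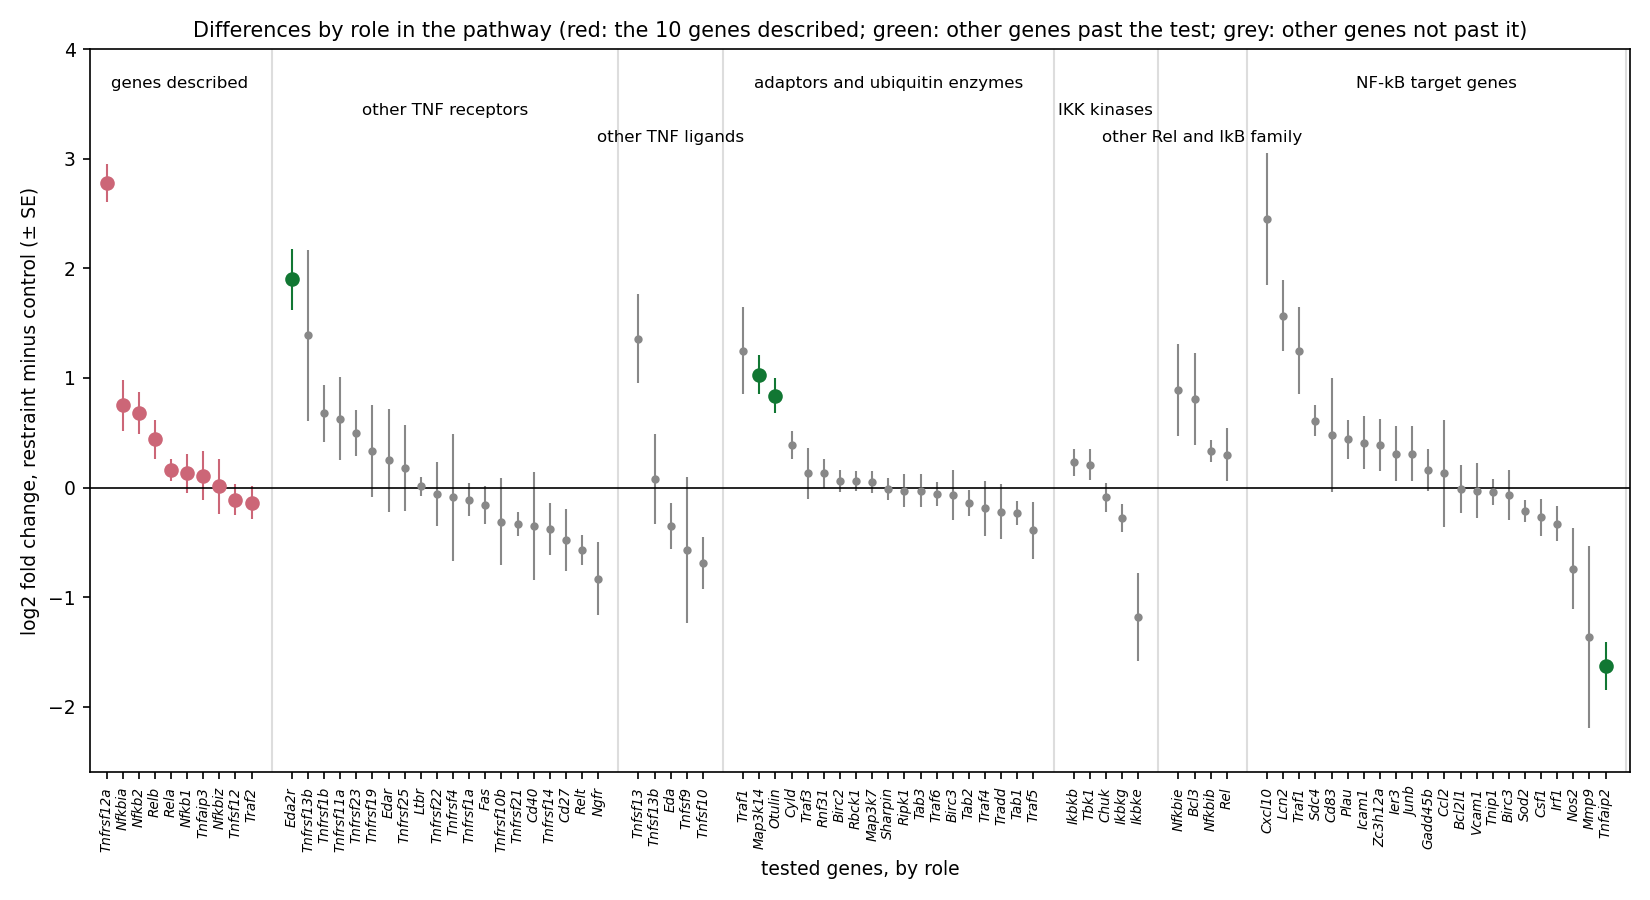
Log2 fold change (restraint minus control, with SE) of the 10 genes and of every tested gene of the 6 other role lists; red marks the 10 genes described, green other genes past the edgeR test over all features, grey the rest. Tnfrsf12a (2.78) and Eda2r (1.90) lead among receptors, Map3k14 (1.03) and Otulin (0.84) are the adaptors past the test, and Tnfaip2 (-1.63) is the target gene past it.

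The list of known NF-kB target genes, which leaves out the 10 genes described, gave mixed results. Lcn2, Sdc4 and Cxcl10, higher in restraint and near the edgeR threshold without passing it, are given under the other observations. Genes of the list left untested had too few reads. Of 34, 22 were tested, 0 rose and 1 fell by edgeR over all features, with 5 higher and 1 lower at an unadjusted p under 0.05. DESeq2 called 3 higher and 1 lower, limma voom 0 and 1, and edgeR without restraint 1 called 3 higher. EdgeR also called 1 higher with DESeq2 size factors, with no filter, with a stricter filter, and without unannotated loci and mitochondrial genes. The list had 12 positive and 10 negative log2 fold changes, at a median of 0.15. The gene that fell was Tnfaip2, a TNF-induced gene of endothelial and myeloid cells, at 29.5, 19.0 and 20.5 CPM in controls against 9.44, 6.83 and 6.02 CPM in restraint, a log2 fold change of -1.63 ± 0.22 (edgeR adjusted p = 0.0152). The call was lost without control 1 (adjusted p = 0.0771) and without restraint 3 (0.0565).

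In mouse muscle TWEAK is known to raise the ubiquitin ligase Trim63 and to lower the coactivator Ppargc1a. Of 6 genes linked to TWEAK in muscle 2 rose and none fell by edgeR, and both Trim63 (2.11 ± 0.38 on the log2 scale, edgeR adjusted p = 0.0316) and Ppargc1a (1.67 ± 0.21, 0.0116) were higher in restraint. DESeq2 called 2 higher and 0 lower, and limma voom 1 and 0. With a library left out, Trim63 was called by edgeR only without restraint 1. Ppargc1a was lost without control 1 (edgeR adjusted p = 0.0831) and control 2 (0.0511). Mmp9, a matrix protease that TWEAK also induces, was counted at 0.858, 0.536 and 0.642 CPM in controls against 0, 0.621 and 0.162 CPM in restraint. Its groups overlapped on 0 to 42 reads per library, and it did not pass (-1.36 ± 0.83 on the log2 scale, edgeR adjusted p = 0.489). Slc2a4, the glucose transporter GLUT4, did not pass either (0.20 ± 0.10 on the log2 scale).

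The profile most like that of Tnfrsf12a, measured as the root mean square difference in log2 CPM from the control mean over 6 libraries, belonged to Tiam2, an exchange factor for the GTPase Rac, at 0.345. Next came Tbc1d1 at 0.38, a regulator of glucose transporter traffic, and Xirp1 at 0.445, an actin-binding protein of striated muscle. Mustn1, Runx1, Rrad, Mt2 and Myog followed between 0.556 and 0.593, out of 10119 features compared. No other gene of the 10 could be among these 8, since the measure rests on the size of the difference. The others of the 10 reached at most 1.11 above their control mean (Nfkbia in restraint 3), so nothing is read from their absence. For Nfkbia the nearest were Sctr, the secretin receptor, at 0.133, Angpt2, a vascular ligand, at 0.142, Otulin at 0.17 and Sat1, an enzyme of polyamine breakdown, at 0.18.

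**Figure D4:**
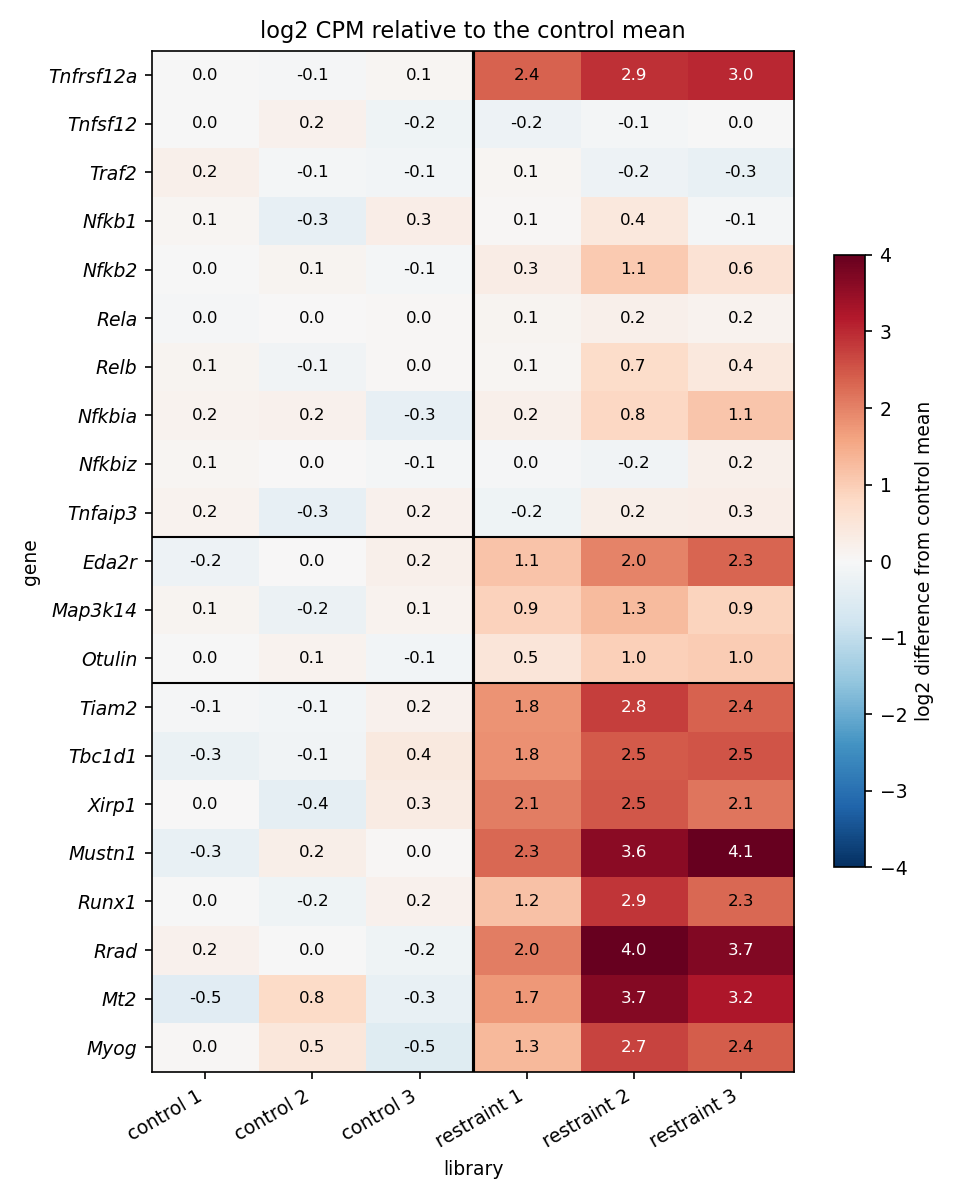
Log2 CPM of each gene in each library relative to the mean of the 3 controls, for the 10 genes (top), the called receptor and adaptor genes (middle) and the 8 genes most like Tnfrsf12a (bottom). Tnfrsf12a lies 2.36, 2.91 and 3.00 above its control mean in restraint 1 to 3, while the other 9 genes reach at most 1.11 (Nfkbia in restraint 3).

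Facts of the libraries bear on these values. Total counts ran from 44290720 to 51125779 per library, and 3 counts correspond to 0.055 to 0.073 CPM. Muscle markers overlapped between groups: 10 genes including Acta1 and Ckm summed to 139600 to 153800 CPM in controls against 139600 to 151800 CPM in restraint. In bulk tissue, fewer cells of a type and less RNA per cell cannot be told apart. Macrophage markers were tested for 12 of 13 genes, all 12 with positive log2 fold changes and 1 called, and summed to 58.3 to 78.3 CPM in controls against 70.8, 208 and 108 CPM in restraint 1 to 3. Among restraint libraries, the macrophage sum was lowest in restraint 1, as were the 7 of the 10 genes counted above, and highest in restraint 2. That order was not particular to macrophages. Fibroblast sums were 596, 1151 and 647 CPM and tendon sums 83.3, 206 and 154 CPM in restraint 1 to 3. Neutrophil sums had the same order, and those of the other marker lists did not. Restraint 2 was also the highest restraint library for Nfkb1, Nfkb2, Rela and Relb. Restraint 3 was the highest for Tnfrsf12a, Tnfsf12, Nfkbia, Nfkbiz and Tnfaip3, and restraint 1 for Traf2.

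Neutrophil markers, of which 1 of 6 could be tested and Ly6g was at 0, summed to 0.122 to 0.165 CPM in controls against 0.449 to 1.99 CPM in restraint. Lymphocyte markers, with 1 of 10 tested and Cd3g at 0, summed to 41.4 to 92.6 CPM in controls against 13.0 to 22.0 CPM in restraint, nearly all of it Ighm. Satellite cell markers, all 5 tested, 2 of them with positive log2 fold changes and none at 0, summed to 18.5 to 20.03 CPM in controls against 20.8 to 25.8 CPM in restraint. Most of that sum was Cdh15, at 12.9 to 13.7 CPM in controls against 14.3 to 19.7 CPM in restraint. Tendon markers had negative log2 fold changes in 8 of 8 and summed to 187 to 242 CPM in controls against 83.3 to 206 CPM in restraint. Endothelial, fibroblast and Schwann cell sums overlapped between groups. The part of these cells in the differences above was not tested.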

How the data were processed

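Each of the 6 libraries has a column of raw counts in the deposited table, not normalized, beside columns of FPKM and TPM that the authors derived (per the file headers). The submitters' processing notes name bcl2fastq 2.20.0, Trimmomatic, HISAT2 2.1.0, StringTie 2.1.3b and GRCm38 (mm10), with no role or order; whether counting used strand is not stated there. Groups follow the treatment label and replicate numbers the titles. Of 46504 features, 825 are unannotated loci (4.84% to 7.14% of counts per library), kept because each has an identifier.

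The main test on these counts was that of edgeR 4.0.16 under R 4.3.3 (filterByExpr, minimum count 10, minimum total 15; TMM; glmQLFit and glmQLFTest, two-sided; Benjamini-Hochberg over 15448 features at 0.05). Standard errors come from the ratio of the absolute log2 fold change to the root of the F statistic. Levels between genes use deposited TPM. The script was tested on simulated counts. Libraries of a group all differed by more than sampling noise (lowest chi-square per degree of freedom 27.2).

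The 10 genes, the lists, the alternatives and the naming rule were chosen with earlier results of these data known. The rule names the 10 genes; per list up to 4 genes past the test by smallest p, or 2 where none passed; and the 8 profiles nearest Tnfrsf12a and 4 nearest Nfkbia (average log2 CPM of at least 1, prior count 2, no predicted, mitochondrial or pseudogene name). Ltbr, Tnfrsf1a, Tnf, Mmp9, Slc2a4, Tnfsfm13, Hcfc1r1 and the genes of the closing section fall outside it and were chosen after their values were seen. Alternatives were other scalings, filters and tests (DESeq2 1.42.0, limma 3.58.1), a replicate block and each library left out.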

Additional observations from a re-analysis of the deposited data

How the results depend on the processing

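Tnfrsf12a passed the edgeR, DESeq2 and limma thresholds in all 12 alternatives and all 6 fits with a library left out, with log2 fold changes from 2.56 to 2.96. Since these same counts chose the gene, that describes the settings and is no independent support. Of the 10 genes, 1 was higher at the threshold; DESeq2 gave 3 (Tnfrsf12a, Nfkb2 and Nfkbia), and fits with a library left out 1 to 2, the second being Nfkbia without restraint 1. Over all features 195 were higher and 87 lower by edgeR. DESeq2 gave 504 and 309, log2(TPM + 1) 99 and 23, log2(TPM + 0.1) 92 and 20, log2(FPKM + 1) 111 and 42, and library totals 140 and 56. Leaving out a library gave 12 to 254 higher (12 without control 1) and 4 to 96 lower. The replicate block gave 52 and 8. Same-numbered libraries had deviations correlated at 0.014, -0.201 and -0.209. With so few libraries, these values cannot decide whether the numbers mark pairs. Under the block Eda2r, Tnfaip2 and Ppargc1a stayed past the threshold and Map3k14, Otulin and Trim63 did not. Map3k14, Otulin and Trim63 were each called in 7 of 12 alternatives. Map3k14 lost its call at log2 fold changes of 1.03 with library totals, 1.03 with the block, 1.01 on log2(TPM + 0.1), 0.69 on log2(TPM + 1) and 0.50 on log2(FPKM + 1). The limma fits on TPM and FPKM, with a minimum of 1 in 3 libraries, leave Nfkbiz and Tnfaip3 untested, and those on TPM + 1 or FPKM + 1 understate low genes. The causes of the other shifts were not tested. Nfkbiz, Ikbke and Tnfsf13 rest on few reads, 8 to 51 per library.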

Other observations

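Of the NF-kB target genes, several stood near the threshold without passing it in the main edgeR test, while some alternatives called 1 to 3 of the list higher. Lcn2, encoding lipocalin 2, a secreted iron-siderophore binder of the acute phase, was counted at 0.47, 0.755 and 0.532 CPM in controls against 1.26, 2.29 and 1.64 CPM in restraint, or 1.57 ± 0.32 on the log2 scale (edgeR adjusted p = 0.0508). Sdc4, the heparan sulphate proteoglycan syndecan 4, was counted at 16.8, 20.8 and 16.7 CPM in controls against 23.1, 31.1 and 28.7 CPM in restraint, 0.61 ± 0.14 on the log2 scale (edgeR adjusted p = 0.0782). Cxcl10 was counted at 0.143, 0.195 and 0.184 CPM in controls against 0.27, 1.2 and 1.41 CPM in restraint. That was 2.45 ± 0.60 on the log2 scale (edgeR adjusted p = 0.0907), on 7 to 61 reads per library. The groups of Lcn2, Sdc4 and Cxcl10 did not overlap, though restraint 1 of Cxcl10 lay near its controls. Among receptors, Relt, a TNF receptor family member of lymphoid tissue, lay the other way, at 7.25, 5.82 and 6.46 CPM in controls against 4.38, 4.37 and 4.44 CPM in restraint (-0.57 ± 0.14, edgeR adjusted p = 0.0909), though its deposited TPM overlapped between groups. Cyld, a deubiquitinase that restrains NF-kB signalling, stood at 17.2 ± 2.199 CPM in controls against 22.6 ± 2.49 CPM in restraint (0.39 ± 0.13, edgeR adjusted p = 0.19).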
